A study of Mus musculus with 4 samples.

Results

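The cytosolic ribosomal protein genes were examined in 4 lists of Sub1 CUT&Tag peaks from mouse bone marrow. They were taken from the RefSeq annotation of GRCm38 (mm10) as protein-coding genes whose symbols start with Rpl or Rps and a digit, with Rplp0, Rplp1, Rplp2, Rpsa and Fau. The Rps6k kinases and names marked -ps were left out. The rule found 90 of 21900 protein-coding genes, on 20 chromosomes. Of these, 78 encode standard proteins of the cytosolic ribosome, and 12 are paralogs, retrocopies or genes with a like name. The 12 are Rpl3l, Rpl10l, Rpl22l1, Rpl32l, Rpl36al, Rpl37rt, Rpl39l, Rpl7l1, Rps19bp1, Rps23rg1, Rps27l and Rps27rt.

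CUT&Tag cuts and tags DNA beside a protein bound by an antibody, here an antibody to Sub1. Sub1 binds DNA and acts as a coactivator of transcription. HSC libraries came from hematopoietic stem cells of the bone marrow, sorted as CD48-CD150+LSK cells from Nup214fl/+ mice. LSC libraries came from leukemia stem cells, sorted as c-Kit+, CD16/32+ and CD34+ cells without Lin or Sca-1, of Nup214fl/+ mice with leukemia driven by MLL-AF9, a fusion oncoprotein. Each group had 2 libraries. All mice carried the same Nup214 genotype. The labels give neither their age nor how MLL-AF9 was introduced. They also do not say whether replicate libraries are separate animals, and p-values below measure only the spread between these libraries, which may be technical. The cell type field is the same for HSC and LSC samples, and the groups rest on the sample titles. Peak names begin with H4-Cut, a prefix left unexplained by the labels.

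Values for the 4 libraries are given in the order HSC 1, HSC 2, LSC 1, LSC 2 throughout. The lists held 115881, 235680, 41097 and 34185 peaks, and HSC 2 stood apart as the longest list. Read totals were not given. Ly6a and Slamf1, genes of the HSC sort, had a peak in each HSC list and in neither LSC list. In lists of equal size Slamf1 had none in any list, and Ly6a kept its peak in both HSC lists. In the deposited lists 5 of the 7 sorting marker genes had a peak in every list, among them Kit, Fcgr3 and Cd34. All 5 neutrophil markers had a peak in every list, with a median gene rank (a percentile of peak strength within a list) of 71.0, 70.1, 46.9 and 55.7. On that scale Fcgr3, a gene of the LSC sort, stood higher in HSC lists, at 99.5, 97.2, 75.5 and 82.3. Cd34 (35.4, 36.3, 75.9 and 62.2) and Kit (51.3, 59.3, 65.2 and 77.5) stood higher in LSC lists. Fcgr2b (73.7, 88.3, 72.5 and 83.3) and Procr (52.3, 44.9, 45.5 and 44.2) overlapped between the groups. In lists of equal size Cd34 kept its peak in the LSC lists alone. Of the erythroid markers, 0 of 3 had a peak in every list, and of the B cell and T cell markers 1 of 3 each.

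Every cytosolic ribosome joins a small subunit, which reads the mRNA, and a large subunit, which forms the peptide bond, and each needs its proteins in matched amounts. The genes are short, active in nearly all cells and often host snoRNAs in their introns. Many start transcription at a C within a run of pyrimidines, so that their mRNAs carry a terminal oligopyrimidine (TOP) tract through which growth signals set their translation. Blood formation is sensitive to their dose: loss of 1 copy of genes such as Rps19, Rpl5 or Rpl11 causes Diamond-Blackfan anaemia, and RPS14 lies in the region lost in the 5q- syndrome.

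The stretches around the annotated starts show what these promoters look like and where peaks could not be placed by the start alone. Each runs from 50 bases before a start of the promoter table through the first 20 bases from it, on the gene's strand, from RefSeq, GRCm38.p6. Fau, which encodes the ubiquitin-like fusion of a small-subunit protein, is shown for its pyrimidine run, Rps25 for the highest ranks, and Rpl10 for the lowest ranks among standard genes. Rpl22 and Rpl19 are shown with both starts of the promoter table, because their peak summits lay far from the annotated start. Capitals mark the longest run of C and T that touches the 5 bases on either side of the start.
Fau, chr19:6057897-6057966, plus strand: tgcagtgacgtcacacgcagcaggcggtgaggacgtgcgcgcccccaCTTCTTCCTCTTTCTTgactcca
Rps25, chr9:44407664-44407733, plus strand: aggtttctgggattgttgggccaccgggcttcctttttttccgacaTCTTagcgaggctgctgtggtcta
Rpl10, chrX:74270766-74270835, plus strand: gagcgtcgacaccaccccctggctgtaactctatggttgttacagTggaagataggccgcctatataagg
Rpl22 upstream start, chr4:152324386-152324455, plus strand: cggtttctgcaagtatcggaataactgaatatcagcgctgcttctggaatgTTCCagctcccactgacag
Rpl22 downstream start, chr4:152325676-152325745, plus strand: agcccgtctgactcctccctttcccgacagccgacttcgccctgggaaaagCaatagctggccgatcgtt
Rpl19 upstream start, chr11:98026660-98026729, plus strand: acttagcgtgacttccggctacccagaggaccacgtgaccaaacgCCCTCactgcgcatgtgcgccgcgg
Rpl19 downstream start, chr11:98026874-98026943, plus strand: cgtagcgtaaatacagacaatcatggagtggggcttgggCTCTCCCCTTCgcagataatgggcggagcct

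The run by the start was 16 bases long in Fau, 11 at the downstream start of Rpl19 and 4 in Rps25, and a single base in Rpl10. Of these runs only that of Fau covers the start base, and the others end before it. The promoter table held 70 of the 90 genes, some with more than 1 start. A run of at least 8 pyrimidines touched a start in 27 of the 70 genes (38.6%), against 11.5% of all 17492 protein-coding genes in the table and 10.1% of 69 mitochondrial ribosomal protein genes. The start base was C in 35.7% of the genes, against 16.1% of all. In the windows of 300 bases, searched on both strands, CTTTC stood in 81.4% of the genes against 58.6% of all, and CTTTCC, which contains CTTTC, in 51.4% against 28.8%. CCGGAAG stood in 37.1% against 12.9% and in 37.7% of the mitochondrial ribosomal protein genes, AAGATGG in 15.7% against 7.18%, TATAAA in 11.4% against 14.8%, and GGGCGG in 60.0% against 49.2%. These are matches of letters. Pyrimidine runs at or beside the start were thus more frequent in the cytosolic than in the mitochondrial ribosomal protein genes, while the share with CCGGAAG was nearly equal.

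Rps27 and its retrocopy Rps27rt are shown because their windows share the transcribed part and differ before it. Capitals here mark the stretch both share, cut off at the end of the print.
Rps27, chr3:90213629-90213698, minus strand: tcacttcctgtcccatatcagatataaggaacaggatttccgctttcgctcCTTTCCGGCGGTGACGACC
Rps27rt, chr9:114982720-114982789, minus strand: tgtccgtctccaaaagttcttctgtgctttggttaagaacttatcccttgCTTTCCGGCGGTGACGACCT
The shared stretch was 38 bases long, the longest that the windows have in common. It began at the start base of Rps27rt and 1 base after that of Rps27. In 7 other pairs of a gene with its paralog or retrocopy (chosen after the data were seen) the longest shared stretch of the windows was 7 to 10 bases.

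Nearly all of the genes carried Sub1 peaks in both cell types. A peak counted when it overlapped the gene, extended by 1 kb at both ends, by at least 1 bp. The number of genes with a peak was 86, 86, 84 and 85 of 90, where 68.9, 82.4, 61.8 and 57.4% of all protein-coding genes had one. All 78 standard genes had a peak in every list. Over the whole set, 84 of 90 had one in all 4 lists, against 55.4% of all protein-coding genes. The 6 exceptions were all retrocopies or paralogs. With the summit of the peak required inside the extended gene, 84, 80, 83 and 80 of the 90 genes had a peak.

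Rps27rt, Rpl32l, Rpl10l and Rpl39l had no peak in any list. Rpl10l and Rpl39l are known as paralogs of Rpl10 and Rpl39 that are used in the testis. Their parents Rpl10 and Rpl39 and the parent of Rps27rt carried peaks in all 4 lists. At Rps27 the lead peak, which is the overlapping peak of highest fold, was 7690, 3261, 2391 and 3649 bp wide with its summit 127, 125, 122 and 96 bp into the gene. Fold is the authors' ratio of pileup over background at a peak and is used here only within a list. The lead peak of Rps27 also overlapped the neighbours Nup210l and Rab13 in every list. Thus the parent had summits within 31 bp of each other, and the copy that shares its first transcribed bases had no peak. The reason for this difference was not tested.

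Rps23rg1, a retrocopy of Rps23, had peaks in the HSC lists alone. Its lead peaks were weak and narrow, with folds of 6.14 and 5.55 and widths of 391 and 471 bp, and lay 12170 and 13333 bp downstream of its start. Rpl37rt had lead peaks of fold 8.11, 8.26 and 8.54 in HSC 1, HSC 2 and LSC 2 and none in LSC 1. In LSC 2 the lead peak of Rpl37rt had its summit at -39 bp, before the start, and overlapped the neighbour Acads. When each list was cut to the 34185 peaks of lowest p, the size of the shortest list, 84, 84, 84 and 85 genes kept a peak, against 53.5, 55.9, 59.9 and 57.4% of all protein-coding genes. In these lists 84 genes had one in all 4, against 49.3%, and the 78 standard genes were again complete.

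The 6 other paralogs and like-named genes had a peak in every list and differed among themselves. Rps27l, a paralog of Rps27 known as a target of p53, had folds of 50.4, 76.7, 263 and 217. Rpl36al, a copy of Rpl36a, had folds of 71.7, 74.1, 251 and 159, and its gene ranks were 98.2, 93.0, 97.0 and 93.5. Rpl22l1, the paralog of Rpl22, lay lower, with lead folds of 15.0, 38.7, 64.9 and 73.6 and narrow lead peaks of 1208, 1577, 1420 and 1801 bp. At Rps19bp1 and Rpl7l1, named after their values were seen, the lead summits of the 4 lists spread over 9211 and 9665 bp. Over all paralogs and like-named genes with a peak the median summit lay 1957.5, 736, 982.5 and 1731 bp downstream of the start, against 207.5, 366, 253.5 and 353.5 bp for standard genes of known strand. So the paralog class held genes near the top, genes with distant summits and genes with no peak.

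Pseudogenes of the ribosomal protein genes were mostly without peaks. Of 324 annotated pseudogenes, 47, 105, 16 and 20 had a peak, or 14.5, 32.4, 4.94 and 6.17%. Away from protein-coding genes it was 27, 70, 9 and 11 of 238. Their median lead width was 513, 486, 552 and 592.5 bp. The share was highest in HSC 2, the longest list, and in lists of equal size it was 6.79, 6.17, 3.70 and 6.17%. Reads from a pseudogene or retrocopy nearly identical to its parent cannot always be placed. How such reads were handled is not given in the sources used here.

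Lead peaks at the genes were wide, and all peaks of a gene together covered most of the gene body in the median. The median width of the lead peak was 3449, 4360, 3503.5 and 4529 bp. Among all protein-coding genes with a peak it was 1501, 1422, 2355 and 2791 bp, and among the mitochondrial ribosomal protein genes 1688.5, 2464, 2528 and 2881 bp. The genes' own medians thus lay above both in each list. Proteasome genes, another set of genes active in all cells, had medians of 2187, 2800.5, 2390.5 and 3127.5 bp. Ribosome assembly factors came closer, with 2630.5, 3361, 3339 and 4220 bp, as did translation factors and regulators, with 2922, 3213, 3241 and 3933 bp. The 5 neutrophil markers, with a median span of 3092 bp, had medians of 5487, 6813, 1495 and 4099 bp. Great width was thus not particular to the set, and in both HSC lists the neutrophil markers were wider.

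**Figure D1:**
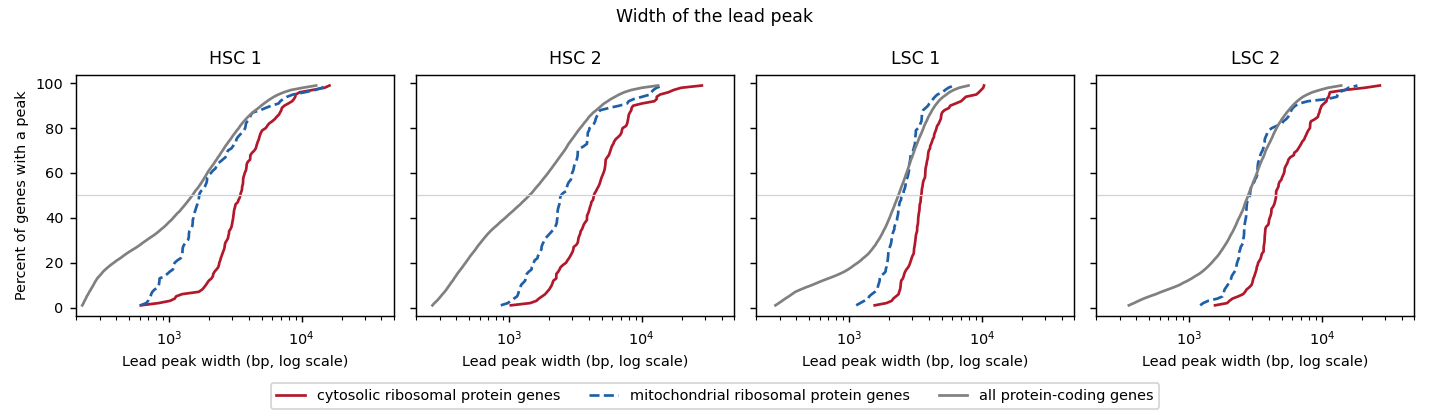
Width of the lead peak (log scale, bp) against the percent of genes with a peak that are no wider, in 4 panels for HSC 1, HSC 2, LSC 1 and LSC 2, for the cytosolic ribosomal protein genes (red), the mitochondrial ribosomal protein genes (blue, dashed) and all protein-coding genes (grey). The red curve crosses the 50% line at 3449, 4360, 3503.5 and 4529 bp, to the right of both others in each panel.

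Peaks covered a median of 80.0, 86.8, 73.5 and 82.0% of the gene span, against 3.35, 10.1, 2.48 and 1.86% over all protein-coding genes. The genes are short, with a median span of 3179 bp against 17146 bp. A single peak held the whole span of 21, 29, 28 and 32 genes (23.3, 32.2, 31.1 and 35.6%), against 2.04, 2.18, 1.56 and 2.45% of all protein-coding genes. Across the 86 genes with a peak in 1 list or more, Spearman's rho of median width was -0.16 with span and 0.31 with median gene rank. This is a description over genes, which share their libraries.

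The widest lead peaks ran across neighbouring genes. At Rps18, a gene of the small subunit on chromosome 17 (33951998 to 33955665, minus strand), the lead peak was 14450, 48728, 10218 and 11418 bp wide. In HSC 2 it also covered Daxx, Zbtb22, Tapbp, Rgl2, Pfdn6, Wdr46, B3galt4 and Vps52, and its summit lay 46557 bp from the start of Rps18. In the other lists the Rps18 summit was 259, 22 and 259 bp into the gene. The HSC 2 values of Rps18 therefore describe a peak that spans 8 other genes as well.

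At Rplp2, an acidic protein of the ribosomal stalk (chromosome 7, 141447651 to 141451359), the widths were 18107, 24848, 2567 and 30802 bp. In 3 lists the peak ran over Pidd1, Pnpla2 and Cracr2b, with the summit 7767, 13443 and 7858 bp downstream, and in LSC 1 the summit was 38 bp downstream of the start. At Fau (chromosome 19, 6057947 to 6059524) the widths were 15879, 17149, 4386 and 26817 bp, and the peak took in the adjoining Mrpl49 in every list. At both genes the lead peak was narrowest in LSC 1. Over all members the lead peak touched another protein-coding gene at 30, 32, 31 and 41 genes (34.9, 37.2, 36.9 and 48.2%), against 25.1, 22.7, 27.6 and 31.1% of all protein-coding genes with a peak. It held the known start of another gene at 18, 20, 17 and 24 (20.9, 23.3, 20.2 and 28.2%), against 16.1, 13.5, 18.6 and 21.1%.

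Within the gene, peaks lay over the 5′ end. The strand was known for the 70 genes of the promoter table. The annotated start lay inside a peak in 63, 62, 62 and 64 of them, against 42.1, 43.2, 46.8 and 44.5% of all protein-coding genes of known strand. The far end lay inside one in 32, 33, 26 and 29, against 10.6, 16, 5.88 and 7.79%. For the start, the share of the 70 genes was 90, 88.6, 88.6 and 91.4%. It was 89.9, 94.2, 92.8 and 95.7% for mitochondrial ribosomal protein genes and 96.4, 85.7, 96.4 and 96.4% for proteasome genes. Among autosomal genes with a peak in every list it was 73.5, 72.4, 80.8 and 78.0%. A start inside a peak was thus not particular to the set. Of the 58 standard genes of known strand the start was inside a peak in 57, 56, 57 and 57. The missing ones were Rpl22 in every list and Rpl19 in HSC 2.

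Peaks over the start reached farther into the gene than upstream. They extended a median of 1942, 2515.5, 2429 and 2683 bp downstream of the start and 1426, 1536.5, 1001 and 1530.5 bp upstream, against 1285, 1431, 1609 and 1812 bp downstream and 814, 972, 854 and 1141 bp upstream over all protein-coding genes. The downstream part was the longer one in 41 of 63, 44 of 62, 56 of 62 and 52 of 64 genes (65.1, 71.0, 90.3 and 81.2%), against 67.1, 62.9, 77.7 and 71.9% of all. A longer downstream part was thus common to genes in general, and in HSC 1 the set was below the background. Summits lay just inside the gene, at a median of 215.5, 382, 253.5 and 355 bp downstream of the start, against 572, 971.5, 374 and 425 bp over all protein-coding genes. Of the genes of known strand with a peak, 51 of 66, 53 of 66, 57 of 64 and 58 of 65 had the summit downstream of the start (77.3, 80.3, 89.1 and 89.2%), against 82.7, 82.5, 83.9 and 82.2% of all protein-coding genes. These shares are near the background, below it in both HSC lists and above it in both LSC lists.

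The summit was within 500 bp of the annotated start in 46, 36, 48 and 40 of these genes (69.7, 54.5, 75.0 and 61.5%), against 42.2, 31, 53 and 49.1% of all protein-coding genes. Measured to the nearest start of the promoter table, a choice made after the data were seen, the counts were 51, 39, 52 and 44, against 49.6, 36.1, 63 and 58.7%. For the mitochondrial ribosomal protein genes the share within 500 bp of the annotated start was 71.0, 73.9, 78.3 and 76.8%. The cytosolic set was thus above all genes and below the mitochondrial set in each list.

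**Figure D2:**
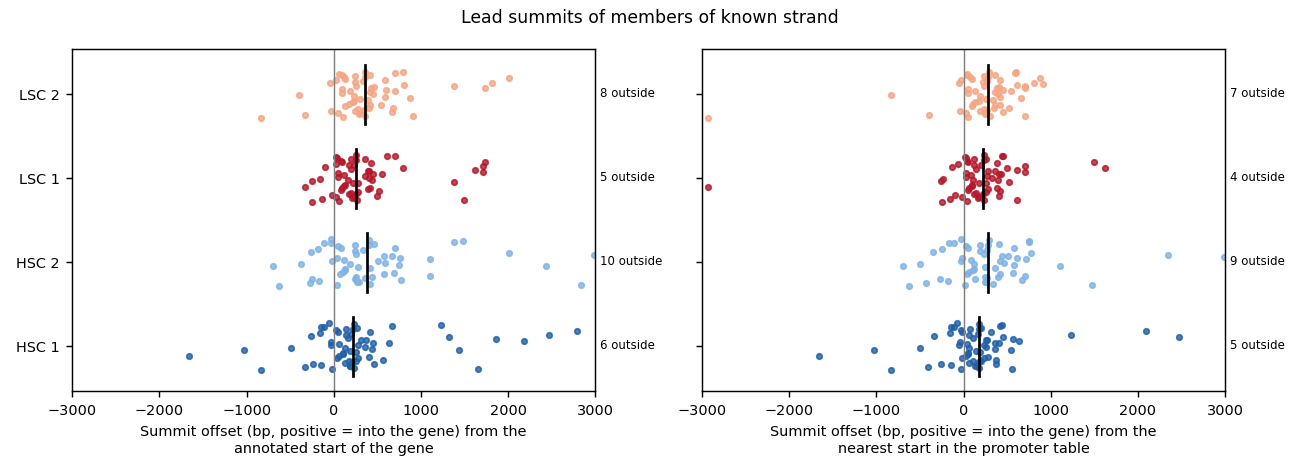
Distance of the lead summit from the annotated start (left) and from the nearest start of the promoter table (right) for genes of known strand, in bp, positive into the gene. Each point is 1 gene, black bars are medians (215.5, 382, 253.5 and 355 bp on the left for HSC 1, HSC 2, LSC 1 and LSC 2), and genes beyond 3000 bp are counted at the side.

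Several of the genes with distant summits had a start of the promoter table downstream of the annotated one, though not every summit lay near it. Rpl19, a protein of the large subunit named after its values were seen, spans 98022003 to 98030493 on chromosome 11. Its summits lay 4984, 4774, 5152 and 4762 bp downstream of the annotated start, and the promoter table places its starts 4707 and 4921 bp downstream. The run of 11 pyrimidines printed above ends just before the second of these. The HSC 1 and LSC 1 summits lay 63 and 231 bp past the second start, and the HSC 2 and LSC 2 summits 67 and 55 bp past the first. In every list separate, weaker peaks lay upstream of the Rpl19 lead peak, as the maps of peaks show.

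Rpl22, a large-subunit protein known from deletions in T cell leukemia, spans 152324436 to 152334082 on chromosome 4. Its summits lay 1659, 2006, 1620 and 1814 bp downstream of the annotated start, where the table has a further start 1290 bp downstream. The lead peak was 1107, 3703, 3406 and 3223 bp wide and did not reach the annotated start in any list. Rps27l had starts 1462 and 1789 bp downstream and summits at 1442, 1108, 1730 and 1731 bp. At Rpl38, also named after its values were seen, the tabulated start lay 762 bp downstream and the summits 1319, 1375, 1378 and 1377 bp.

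Rps2, among the highest in gene rank, has its tabulated start 1942 bp downstream of the annotated one. Its summits lay 1861, 1710 and 2016 bp downstream in HSC 1, LSC 1 and LSC 2, and 6132 bp downstream in HSC 2, past the far end. At Rpl18, named after its values were seen, the tabulated start was 2604 bp downstream, and the summit offsets were 2786, 2841, -330 and -329 bp, negative before the annotated start. The Rpl18 lead peak overlapped the neighbour Sphk2 in every list. The HSC summits thus lay past the tabulated start and the LSC summits before the annotated one, up to 3171 bp apart.

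At other genes the lead summit lay at a neighbour. For Rpl3l, the paralog of Rpl3 used in muscle, it was 9005, 9062, 9005 and 9006 bp downstream, beyond the far end of a gene 8318 bp long and inside a peak that overlaps Msrb1. For Rpl23a it lay in a peak over Nek8 and Tlcd1, at -2741, -2951, -2759 and -2828 bp from the nearer end of the gene (negative outside it). For Rpl17 the HSC summits were inside the gene, 1941 and 2194 bp from the nearer end. Both LSC summits of Rpl17 were at -2536 bp, in a peak over BC031181. Rpl3l thus has no lead peak of its own in these lists, and its values describe the region at its far end.

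**Figure D3:**
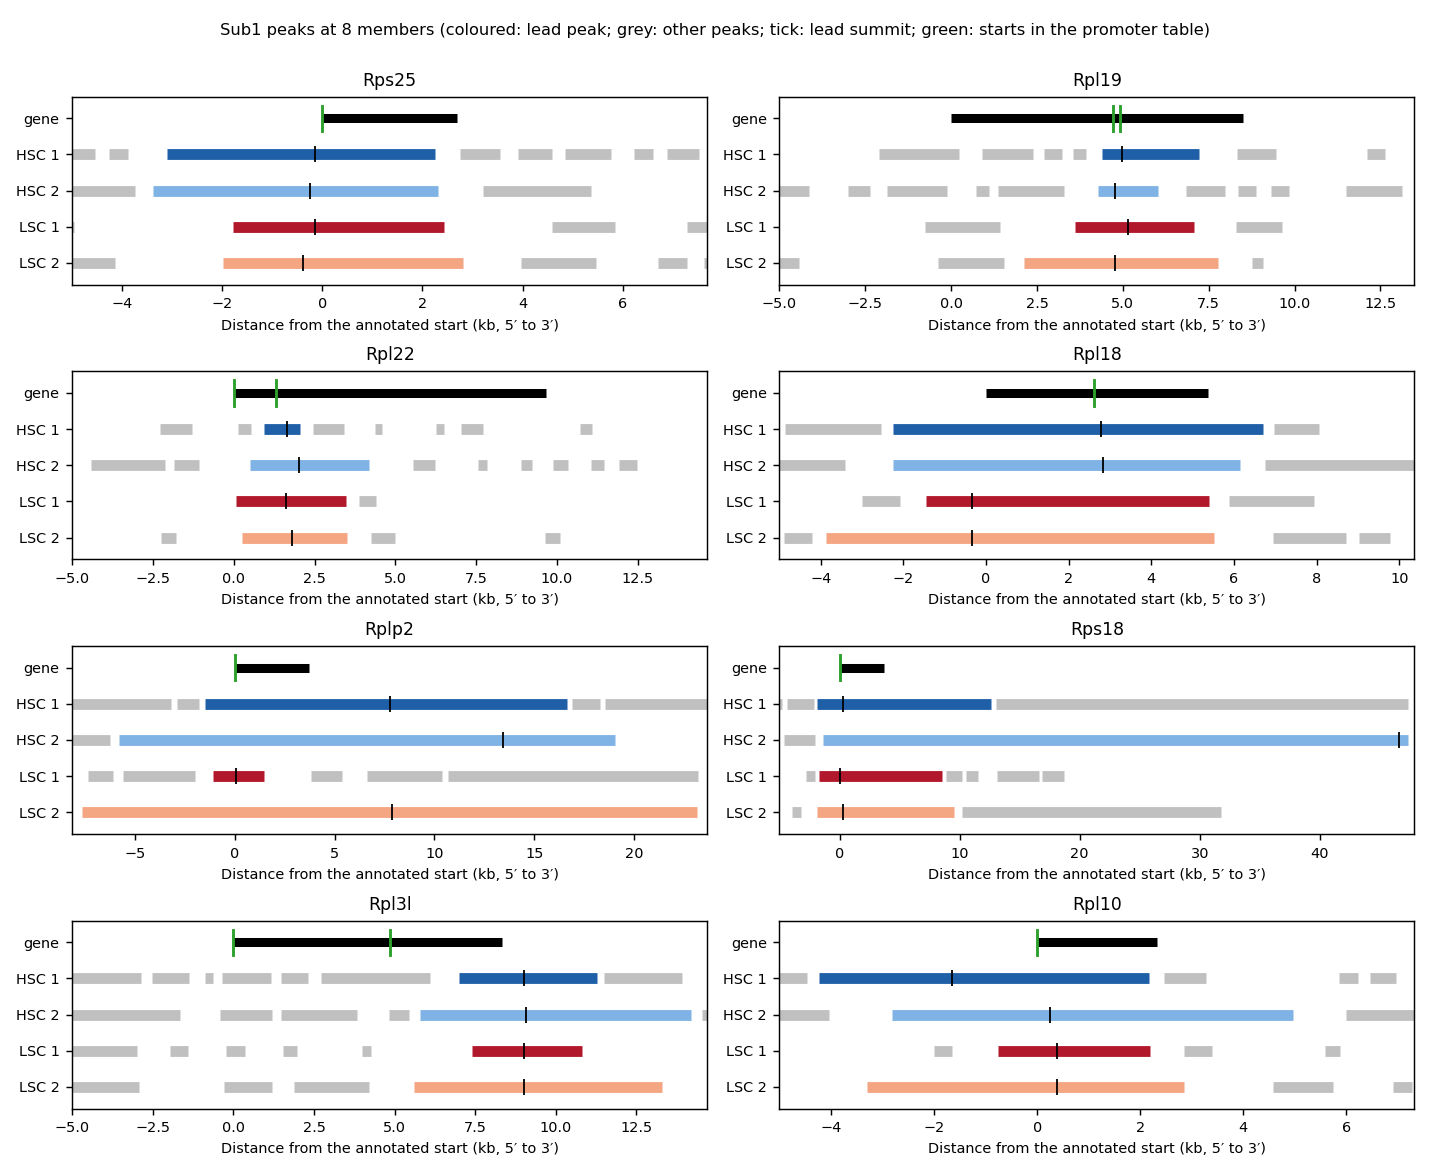
Peaks at 8 genes by distance from the annotated start in kb, 5′ to 3′: gene span in black, lead peaks coloured by library, other peaks in grey, the lead summit as a black tick and starts of the promoter table in green. At Rpl19 and Rpl22 the lead summits stand past tabulated starts downstream of the annotated one, at Rplp2 and Rps18 the lead peak runs past the gene, and at Rpl3l it lies at the far end.

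The position of the summit varied between lists at many genes. The lead summits of all 4 lists fell within 50 bp of each other at 4 of 84 genes, against 4.14% of all protein-coding genes with a peak in every list, and within 500 bp at 42 of 84 (50.0%), against 51.9%. These shares are near the background. Within 500 bp they were 74.4% of the mitochondrial ribosomal protein genes and 79.4% of the proteasome genes. The 4 were Rpl7, Rpl29, Rps27 and Rpl35a, with summits within 8, 13, 31 and 49 bp. LSC 1 and LSC 2 had summits within 50 bp at 34 of 84 genes, and HSC 1 and HSC 2 at 11 of 86 (40.5 and 12.8%), against 35.1 and 13.2% of all protein-coding genes. Between the groups it was 28 of 84 for HSC 1 with LSC 1 (33.3%, against 24.9%) and 27 of 85 for HSC 2 with LSC 2 (31.8%, against 21.2%). For HSC 1 with LSC 2 it was 20 of 85 (23.5%, against 22.3%), and for HSC 2 with LSC 1 18 of 84 (21.4%, against 16.1%). Both HSC lists thus shared fewer summits with each other than with either LSC list, as was also so over all protein-coding genes. At 22 of 84 genes (26.2%) the 4 summits spread over more than 1000 bp, against 33.3% of all.

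The genes ranked high among all protein-coding genes by the fold of their lead peak. The gene rank is the percentile of that fold within a list over 21900 genes, with genes without a peak tied at the bottom. Its median was 82.1, 84.2, 87.4 and 86.5. In each list 84 of the 90 genes ranked above 50, where 50, 49.9, 50 and 50% of all genes did. Above 75 ranked 64, 65, 69 and 71, against 25% in each list. Above 90 ranked 26, 29, 35 and 33, against 9.96, 10, 9.99 and 9.99%. The median lead fold was 38.9, 57.6, 175 and 129, against 23.8, 22.1, 103 and 73.6 over all genes with a peak.

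**Figure D4:**
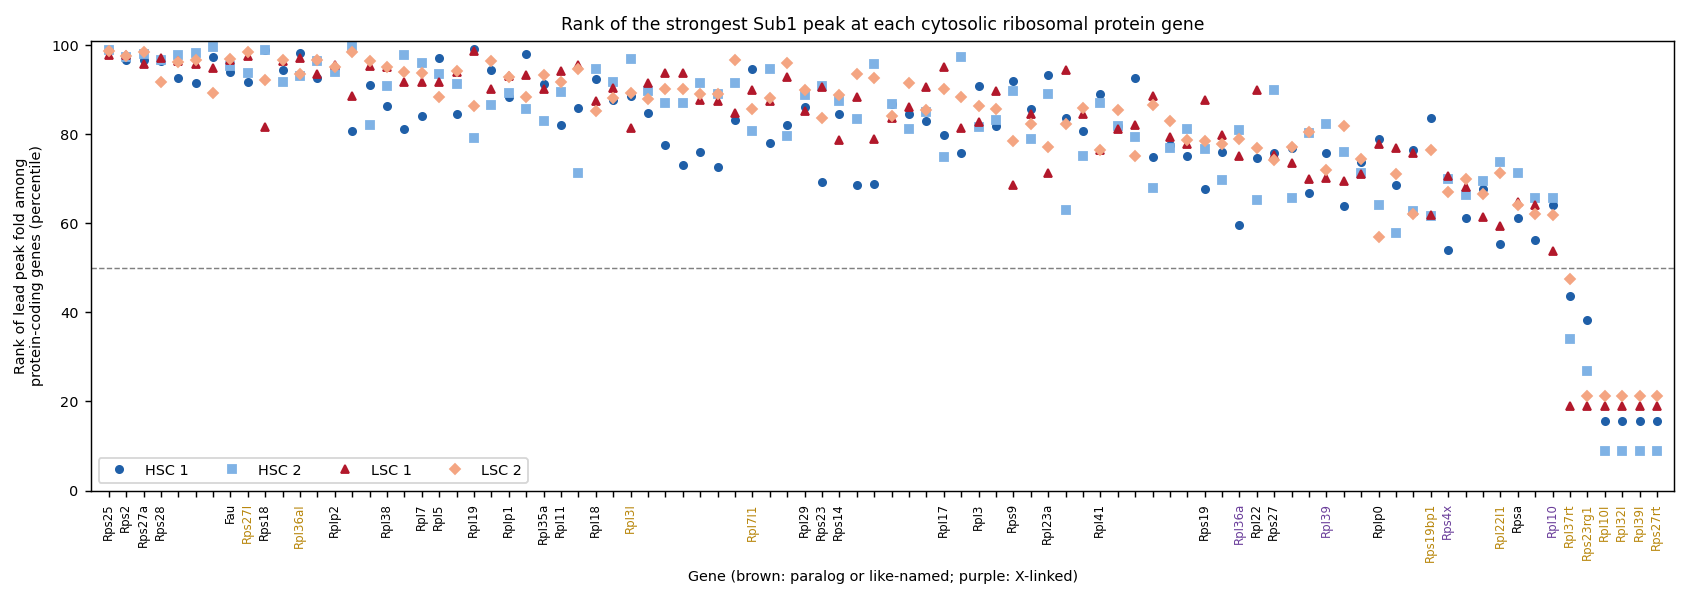
Gene rank (percentile of the lead fold, vertical axis) of each of the 90 genes in HSC 1, HSC 2, LSC 1 and LSC 2, ordered by median rank; brown names are paralogs or like-named genes, purple names X-linked standard genes, and only genes named in the text are labelled. All 78 standard genes lie above the dashed line at 50 in every list, and 6 paralogs or retrocopies lie below it in every list.

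Among the highest by median rank were 4 genes of the small subunit. Rps25, whose protein takes part in initiation at viral internal ribosome entry sites, had folds of 78.1, 112, 269 and 224 and ranks of 98.9, 98.8, 97.9 and 98.7. Rps2 had ranks of 96.6, 97.4, 97.9 and 97.5. Rps27a, which encodes ubiquitin fused to a small-subunit protein, had ranks of 96.6, 97.9, 95.8 and 98.4. Rps28 followed with 96.4, 96.7, 97.1 and 91.6.

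The small subunit as a whole did not rank above the large one. The 32 standard small-subunit genes had a median rank of 76.9, 85.2, 86.0 and 86.2, and the 46 large-subunit genes 83.4, 86.7, 89.3 and 88.2. Their median lead widths were 3672, 4865, 3467 and 4523 bp and 3331, 4334, 3541 and 4724.5 bp. The order of the subunits by width thus changed between lists. The 30 standard genes with an annotated snoRNA inside had a median rank of 81.8, 84.1, 90.1 and 88.3, and the 48 without 83.9, 86.9, 87.4 and 87.3, so the order turned between the HSC and the LSC lists.

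Genes tied to marrow failure were not set apart as a class. The 19 genes mutated in Diamond-Blackfan anaemia had a median rank of 83.6, 89.5, 88.7 and 88.0. Rps19, the gene most often mutated in that disease, had folds of 25.5, 42.6, 175 and 94.5 and ranks of 67.7, 76.7, 87.6 and 78.5. Rpl5 and Rpl11 bind the 5S rRNA and, when ribosome assembly fails, Mdm2. Rpl5 had folds of 64.8, 76.1, 199 and 130 and ranks of 97.1, 93.6, 91.8 and 88.3, and the HSC ranks lie above the LSC ranks. Rpl11 had folds of 38.1, 64.7, 218 and 148 and ranks of 82.1, 89.5, 94.2 and 91.6, with the LSC ranks above. Rps14 had ranks of 84.6, 87.5, 78.7 and 88.7, which overlap between the groups.

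The stalk protein gene Rplp0, often used as a reference in expression assays, had ranks of 78.9, 64.1, 77.9 and 57.0, and the replicates differed more than the groups. Rpsa, also known as the laminin receptor gene, had folds of 19.9, 36.0, 86.6 and 54.3 and ranks of 61.1, 71.4, 64.7 and 64.2. Fau had ranks of 94.0, 95.3, 96.7 and 96.9. Rpl22 had ranks of 74.6, 65.2, 89.8 and 76.9.

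The X-linked genes lay in the lower part of the set. Rpl10, a large-subunit protein mutated in some T cell leukemias, had folds of 22.6, 29.5, 37.9 and 48.3 and ranks of 64.2, 65.6, 53.7 and 61.9. Among standard genes its median rank was the lowest. With Rpl36a, Rpl39 and Rps4x, named here after their values were seen, the 4 X-linked genes had a median rank of 62.0, 75.5, 70.4 and 69.5, against 83.4, 86.9, 88.5 and 88.3 for the 74 autosomal standard genes. Over all protein-coding genes with a peak in every list, the 302 X-linked ones had a median rank of 58.6, 62.3, 60.2 and 62.8, and the 11819 autosomal ones 72.7, 72.5, 72.8 and 72.7. X-linked genes as a whole thus also lay lower than autosomal ones in each list. The sex of the mice is not given in the labels.

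HSC and LSC libraries overlapped in the width of the lead peaks, in the covered share and in the position of summits. With 2 libraries in each group there are 6 assignments, so the two-sided exact permutation test used here cannot give a p under 0.33. Of 8 values compared, none can pass a threshold of 0.05, raw or adjusted. The median lead width was 3904.5 ± 644 bp (SD, n = 2) in HSC and 4016 ± 725 bp (SD, n = 2) in LSC, with overlapping groups (exact permutation p = 0.67). HSC 1 was closer to LSC 1 than to HSC 2, and HSC 2 closer to LSC 2 than to HSC 1. The median distance of the summit from the start, or from the nearer end where the strand was unknown, was 340 ± 91.2 bp (SD, n = 2) in HSC and 324 ± 97.6 bp (SD, n = 2) in LSC, also overlapping (exact permutation p = 0.67). The covered share was 83.4% ± 4.81 (SD, n = 2) and 77.7% ± 6.01 (SD, n = 2), overlapping as well.

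Peaks per gene were more numerous in HSC lists, with means of 2.51 and 2.03 against 1.53 and 1.53 (exact permutation p = 0.33). The groups did not overlap. In lists of equal size the values were 1.67, 1.34, 1.48 and 1.53, and the difference was 0. Over all protein-coding genes the means in the deposited lists were 3.75, 6.52, 1.52 and 1.31. More peaks per gene in HSC lists were thus not particular to the set, which lay below the mean of all genes in both HSC lists. The median gene rank was 83.1 ± 1.54 (SD, n = 2) in HSC and 86.9 ± 0.622 (SD, n = 2) in LSC, 3.79 percentile points higher and without overlap (exact permutation p = 0.33). With the widest peak as the lead peak this difference turned to -0.66. The neutrophil markers lay the other way, at 71.0, 70.1, 46.9 and 55.7 (5 of 5 with a peak in each list), and their part in the rank of other genes was not tested.

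The other gene sets were placed as follows. Mitochondrial ribosomal protein genes had a median rank of 79.6, 80.8, 89.0 and 85.0, and proteasome genes of 77.4, 77.8, 88.4 and 81.4. Both sets thus also ranked higher in LSC lists. At 27 of 86 cytosolic ribosomal protein genes with a peak in 1 list or more (31.4%) both LSC ranks were above both HSC ranks, against 20.3% of all protein-coding genes. Both HSC ranks were above at 14 (16.3%), against 24.6%. For the mitochondrial set the counts were 38 and 7 of 78. With the widest peak as lead peak, LSC was above HSC at 15 cytosolic genes (17.4%), against 18.7% of all, so the count was then no longer above the background. For width, both LSC values were above both HSC values at 19 of 84 genes (22.6%), against 37.7% of all, and below at 7 (8.33%), against 10.8%.

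**Figure D5:**
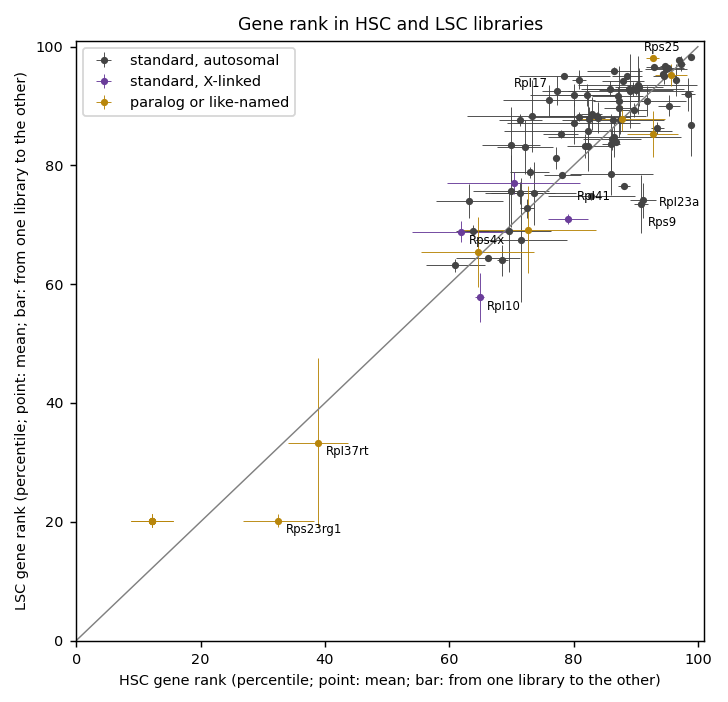
Mean gene rank in the HSC libraries (horizontal) and in the LSC libraries (vertical) for each gene, with bars from one library to the other and the line of equal rank. Standard genes gather in the upper right on both sides of the line, and Rpl17 lies above it and Rps9, Rpl23a and Rpl41 below it with bars that do not cross it. Only some of the genes the text names are labelled.

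Among the genes with the widest gap between the groups on the LSC side was Rpl17. It had ranks of 79.8, 75.0, 95.1 and 90.1, but its lead peak in LSC was the one over BC031181. On the HSC side were Rps9, Rpl23a and Rpl41. Rps9, which serves in decoding accuracy, had folds of 50.8, 65.0, 101 and 94.3 and ranks of 91.9, 89.7, 68.6 and 78.5. Rpl23a, near the exit of the peptide tunnel, had ranks of 93.3, 89.1, 71.2 and 77.0, from a peak at Nek8 and Tlcd1. Rpl41, the shortest protein of the ribosome, had ranks of 89.1, 87.1, 76.6 and 76.5. For these 4 genes the groups were chosen not to overlap, so the gaps are a description.

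Genes that work with the ribosomal proteins also carried peaks throughout. All 38 ribosome assembly factors, 17 RNA polymerase I genes and 19 translation factors and regulators had a peak in every list. Their median ranks were 78.3, 83.0, 83.7 and 84.0 for assembly factors, 68.0, 73.6, 79.0 and 77.0 for RNA polymerase I genes, and 79.6, 85.2, 84.2 and 79.5 for translation factors. Examples from these lists were chosen after their values were seen. Ncl, the nucleolar protein nucleolin, had ranks of 84.8, 95.9, 98.4 and 98.6, and Npm1, which encodes nucleophosmin, 67.7, 67.5, 69.6 and 81.5. Eef2, the factor that moves the ribosome along the mRNA, had ranks of 98.3, 99.5, 83.1 and 91.4. In lists of equal size 38 of 38 assembly factors, 16 of 17 RNA polymerase I genes and 17 of 19 translation factors had a peak in all 4. The RNA polymerase I genes had the lowest median rank of the 3 sets in each list.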

How the data were processed

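Peaks were deposited as 1 list per library. Per the submitters' processing notes, reads were handled with FastQC 0.11.5, Bowtie2 2.2.9, MACS2 and ChIPseeker on mm10; treatment of duplicates, a control library and caller settings are not given in the sources used here. The authors deposited for each peak a fold (ratio of pileup to background), -log10 p and -log10 q, and a score, which equalled 10 times -log10 q rounded down in over 99% of peaks. The lowest deposited -log10 q was 5.21 to 5.41. Read depth is unknown, so no counting interval is given.

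Genes and promoters came from RefSeq GRCm38.p6 tables, with gene strand taken from the promoter table (70 of 90 genes). For genes of unknown strand, offsets were measured to the nearer end, negative outside the gene. The lead peak is the overlapping peak of highest fold, and gene rank its percentile in the list. Group values over 4 libraries were compared with two-sided exact permutation tests. Genes named are the 5 highest and 5 lowest in rank, the 3 widest and narrowest, the 3 with the farthest summits, those missing a peak, the 3 with the widest gap between groups in each direction, and Rps19, Rpl5, Rpl11, Rps14, Rplp0, Rpl22, Rpl10, Fau, Rpsa and Rps27a. Some genes that this rule picks are not reported here. The members, lists and rules were chosen with earlier results of these data known. Rps23rg1 was placed with the paralogs after its values were seen. The alternatives tried were a minimum -log10 q of 10, lists of equal size, other windows (0 and 3 kb), the summit in place of overlap, other lead peaks, no paralogs, each library left out, and pairing by replicate number. Steps were tested on simulated data. Scripts ran under Python 3.11.15 with pandas 2.3.3, NumPy 2.4.6, SciPy 1.17.1 and, for plots, matplotlib 3.10.9.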

Additional observations from a re-analysis of the deposited data

How the results depend on the processing

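Differences are LSC minus HSC. With lists of equal size the difference in genes with a peak turned from -1.5 to 0.5 and that in mean peaks per gene went from -0.739 to 0. Without paralogs and like-named genes the differences in genes with a peak were 0, both in the deposited lists and in lists of equal size. With the widest peak as the lead peak the difference in median gene rank turned from 3.79 to -0.66, and the genes with both LSC ranks above both HSC ranks fell in number from 27 to 15. Leaving out each library in turn gave differences of -401 to 624.5 bp in median lead width (111.75 bp with all libraries; -343.75 bp without HSC 1, -401 bp without LSC 2), of -85 to 53 bp in median summit offset (-16 bp with all; 48.5 bp without HSC 2, 53 bp without LSC 1), and of -5.56 to 7.78 percentage points in genes with a summit near the start (1.11 with all; -5.56 without HSC 2, -4.44 without LSC 1). It gave 0 to 1 for genes in lists of equal size (0.5 with all), 2.70 to 4.88 for median gene rank, -2 to -1 for genes with a peak, -0.978 to -0.5 for peaks per gene and -9.95 to -1.45 percentage points for the covered share. The replicate block leaves each difference as it is and gives an exact sign-flip p of 0.5 or 1, of which 0.5 is the smallest that 2 pairs allow. The labels name no shared source for libraries of one number, so the numbers were not taken as pairs. Deviations of such libraries correlated at 0.026 for width and 0.38 for rank over the 84 genes with a peak in every list. Over 12135 protein-coding genes the correlations were -0.039 and 0.29. Whether libraries of one number share a source cannot be told from these values. The 20 genes of unknown strand, the unknown read depth and 2 libraries a group limit these values.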
